A study of Macaca fascicularis with 605 samples.

Results

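The 43 genes described here are the collagen genes of the cynomolgus monkey (Macaca fascicularis) expression table, chosen as every row whose symbol has the form COL, a number, A and a number. They are 43 of the 26018 genes in that table, and the rule reads the symbol alone. By structure 11 are fibrillar, 6 form the network of basement membranes, 3 lie in the basement membrane zone, 5 form beaded filaments, 3 are short chain collagens, 9 are fibril-associated (FACIT), 4 cross the cell membrane and 2 fall outside these families. All 43 gene identifiers were also found in the RefSeq annotation of this species, and 42 of the 43 carry the same symbol there.

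Collagens are secreted, trimeric proteins of the extracellular matrix. The fibrillar chains build the rope-like fibrils of loose connective tissue, tendon, bone and cartilage, whereas type IV chains make the sheet-like scaffold on which epithelia rest. Extraembryonic endoderm is known for making basement membrane, and extraembryonic mesenchyme for filling the early sac cavities with loose matrix.

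The study induced primordial germ cell-like cells (PGCLCs), the culture counterpart of the precursors of eggs and sperm, from monkey embryonic stem cells (ESCs), and measured single cells by SC3-seq, which reads the 3′ ends of transcripts. The 605 cells came from embryos before implantation (24 of embryonic day 6, written E06, 30 of E07, 86 of E08 and 16 of E09), with 384 from embryos after implantation (29.4% of E13, 39 cells of E14, 44.5% of E16, 56 cells of E17 and 5 of E20), 28 from ESC lines, 12 PGCLCs and 25 germ cells of embryonic gonads (E36 to E55). Post-implantation cells came from a dissected fragment that held epiblast, amnion, hypoblast and yolk sac endoderm together. The ESC lines CMK6 (13 cells) and CMK9 (7 cells) grew with mouse LIF (1000 U/ml) and bFGF (4 ng/ml) on mouse embryonic feeder cells, and the line 656BTAG (8 cells) grew in AITS medium with bFGF (20 ng/ml) and the tankyrase inhibitor IWR1 (2.5 nM). All PGCLCs carry the label of the 656BTAG line. They were cells positive for the BTAG reporter, sorted on day 8 of induction in either of 2 media named GK15 and aRB27 (6 cells each). Both media held BMP4 (200 ng/ml), LIF (1000 U/ml), EGF (50 ng/ml), SCF (100 ng/ml) and the kinase inhibitor Y27632 (10 µM). Gonadal cells had been assigned as germ cells by quantitative PCR of their cDNA. The labels do not tie cells to animals.

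Levels are RPM, the reads of a gene scaled to a common library total, and the recovered depth ran from 151085 to 19696121 reads a cell with a median of 1982547, at which 50 RPM equals 99 reads. A cell was read as positive at 50 RPM or more. Each tested value, called a unit here, is the mean over the cells of 1 class in 1 day, line or medium, where that class had at least 5 cells. This gave 35 units, and n below counts units. Cells of 1 day may share an embryo, so the p-values measure the spread between days, lines or media.

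The 540 embryo cells were first sorted by 4 overlapping gates. The GATA4 gate (GATA4 at 50 RPM or more with POU5F1 under 50) held 74 cells, or 13.7% (exact 95% interval 10.9 to 16.9%), the COL3A1 gate (COL3A1 at 50 RPM or more with POU5F1 under 50) 56 cells or 10.4% (7.93 to 13.3%), and the SOX2 gate 230 cells or 42.6% (38.4 to 46.9%). The gate on T (brachyury, a primitive streak factor) held 21.5% (18.1 to 25.2%) of the embryo cells, and the remainder fell in no gate. These intervals count cells as independent and leave out the spread between embryos and days. The GATA4 gate, for instance, held 45.1% of cells at E13 and 0% at E14. The GATA4 gate and the COL3A1 gate shared 42 cells, among them all 34 COL3A1-gate cells of E13. A gate on COL3A1 uses a member of the family to choose the cells, so its levels are described with no test.

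For tests, each cell was placed in 1 class by factors other than collagens. The mesenchyme-factor class (at least 2 of FOXF1, HAND2, SNAI2, TWIST1, TBX20 and HGF at 50 RPM or more, POU5F1 and SOX2 under 50) held 60 cells, 34 of E13 and 26 of E16. After those, the GATA4 class held 26 cells (16 of E13 and 10 of E16), the SOX2 class 34, 25, 44 and 31 cells at E13, E14, E16 and E17 and 60 cells before implantation, and the T class 83 cells after implantation. The labels on the classes were set beside marker lists. These lists also hold genes that set the classes: all 6 mesenchyme factors (VIM was the only other mesenchyme marker), GATA4 and SOX2. The counts are thus partly fixed by the classes and are no independent check of the labels. All 8 endoderm markers averaged at least 10 RPM in the GATA4 class, with 2 of 7 extraembryonic mesenchyme markers. In the mesenchyme-factor class 7 of 7 mesenchyme markers and 2 of 8 endoderm markers did. In the SOX2 class after implantation 5 of 5 epiblast markers and 5 of 8 endoderm markers did.

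The COL3A1 gate was empty before implantation and held 34 cells at E13 and 22 at E16. Beside COL3A1 itself (mean 4613 RPM at E13 and 1636 at E16) its cells held COL1A1 at 1633 and 1096 RPM, COL1A2 at 1875 and 849, COL6A1 at 2043 and 854, COL6A3 at 1188 and 313, COL18A1 at 1193 and 850, and COL4A1 at 1047 and 517. Mesenchyme factors marked the same cells at E13, since all 34 were also the mesenchyme-factor class of that day. The gate's boundary was thinly filled: 3 of its cells lay between 50 and 100 RPM of COL3A1, and 2 further cells with low POU5F1 lay between 25 and 50 RPM. A larger set, 36 of the 92 cells with COL3A1 at 50 RPM or more, lay outside the gate because POU5F1 also reached 50 RPM, and 26 of those 36 were of E16.

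The GATA4 gate held 1 cell at E07, 3 at E09, 51 at E13 (45.1% of that day) and 19 at E16 (11.1%). Its commonest collagen was COL4A1, the chain found in almost every basement membrane, at 50 RPM or more in 48 of 51 cells at E13 and in 19 of 19 at E16, with means of 776 and 334 RPM. COL18A1, the core of a basement membrane proteoglycan, averaged 834 and 711 RPM, and COL9A2, a chain of cartilage type IX collagen, 69.2 and 249 RPM. COL3A1 averaged 3077 RPM in the gate at E13 and 226.9 at E16, with medians of 3157 and 10.9 RPM. Of the 51 cells at E13, 34 were also in the COL3A1 gate and the mesenchyme-factor class, and 8 of 19 at E16 were in the COL3A1 gate. The E13 means are therefore mostly of mesenchyme-factor cells. In the GATA4 class, which leaves those out, the E13 means of COL4A1 and COL18A1 were lower and that of COL9A2 higher, as given below. The 3 cells of E09 averaged 2387 RPM of COL4A1 and had COL3A1 at 0.

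In the SOX2 gate COL18A1 reached 50 RPM in 52.2% of 230 cells, COL1A1 in 44.3%, COL26A1 in 23.04%, COL4A1 in 16.5% and COL3A1 in 6.96%. COL18A1 averaged 8.2, 13.1, 24.1 and 25.3 RPM from E06 to E09 and 58.2, 56.4, 224.9 and 130 RPM at E13, E14, E16 and E17. The 4 days before implantation were all lower than the 4 after it. In the T gate COL18A1 again led, with 54.3% of cells at 50 RPM or more, followed by COL1A2 with 31.9%, COL1A1 with 26.7%, COL4A1 with 25%, COL5A1 and COL26A1 with 21.6% each, COL6A1 with 17.2%, COL23A1 with 14.7% and COL13A1 with 12.1%. The gate's 4 cells of E20 averaged 677 RPM of COL6A1, 446 of COL1A1, 337 of COL3A1 and 247 of COL18A1.

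The first question was how the collagens of the mesenchyme-factor and GATA4 classes differ from those of the SOX2 class after implantation. Of the 43 collagens 31 passed the filter on low values (a mean of at least 10 RPM in 2 units). In the mesenchyme-factor class 11 of the 31 rose and 3 fell against the SOX2 class (limma, adjusted p under 0.05), where 9.23% of all genes tested were called (4.39% higher and 4.84% lower). In the GATA4 class 4 rose and 1 fell, where 15.5% of all genes were called (7.68% higher and 7.79% lower), so the share of collagens called there was close to that of all genes. Both comparisons use the same 4 units of the SOX2 class. Directly between the mesenchyme-factor and GATA4 classes 4 collagens were higher in the former and 1 in the latter, against 6.13% of all genes (2.18% higher and 3.95% lower). The median change of the 31 collagens from the SOX2 to the mesenchyme-factor class was 1.39 on the log2 scale, beside -0.05 for all genes tested.

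Among fibrillar chains COL3A1, the sole chain of type III collagen and a partner of type I in soft tissues, averaged 4613 RPM at E13 and 1144 at E16 in the mesenchyme-factor class. In the SOX2 class it averaged 1.41, 7.61, 536 and 6.24 RPM at E13, E14, E16 and E17. The groups did not overlap, but the E16 unit of the SOX2 class stood well above its other days: 13 of its 44 cells reached 50 RPM, 3 of them held 2184, 3326 and 16489 RPM, and its median cell held 2.3. The change was 7.09 ± 2.13 (log2 change ± SE, adjusted p = 0.0294). Within the mesenchyme-factor class the E16 cells were uneven too, with a median of 57.1 RPM beside 4028 at E13.

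COL5A1 and COL5A2, chains of type V collagen, which starts fibril assembly and limits fibril width, rose as well. COL5A1 averaged 326 and 225.1 RPM in the mesenchyme-factor class and 5.13, 4.24, 52.2 and 12.6 RPM in the SOX2 class. The change was 4.46 ± 1.05 (adjusted p = 0.0048). COL5A2 averaged 390 and 160 RPM against 2.29, 1.91, 20.95 and 4.01 RPM, a change of 5.46 ± 1.33 (adjusted p = 0.0069).

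The type I chains did not pass. COL1A1 averaged 1633 and 971 RPM in the mesenchyme-factor class, but 104.5, 114.9, 320 and 60.8 RPM in the SOX2 class, a difference of 3.34 on the log2 scale (adjusted p = 0.142). COL1A2 averaged 1875 and 567.7 RPM against 66.4, 50.3, 271 and 20.2 RPM, a difference of 3.95 (adjusted p = 0.129). For both genes the mesenchyme-factor units lay above every SOX2-class unit. Against the GATA4 class, where COL1A1 averaged 6.92 RPM at E13 and 113.5 at E16, COL1A1 was higher by 5.39 (adjusted p = 0.038), and COL5A1 by 5.51 (adjusted p = 0.004). COL3A1 was not called in that comparison (5.87, adjusted p = 0.174). The E16 unit of the GATA4 class averaged 252 RPM of COL3A1, with 2 of its 10 cells at 50 RPM or more and a median cell at 2.65 RPM. No fibrillar member of the 8 tested was called between the GATA4 and SOX2 classes.

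**Figure D1:**
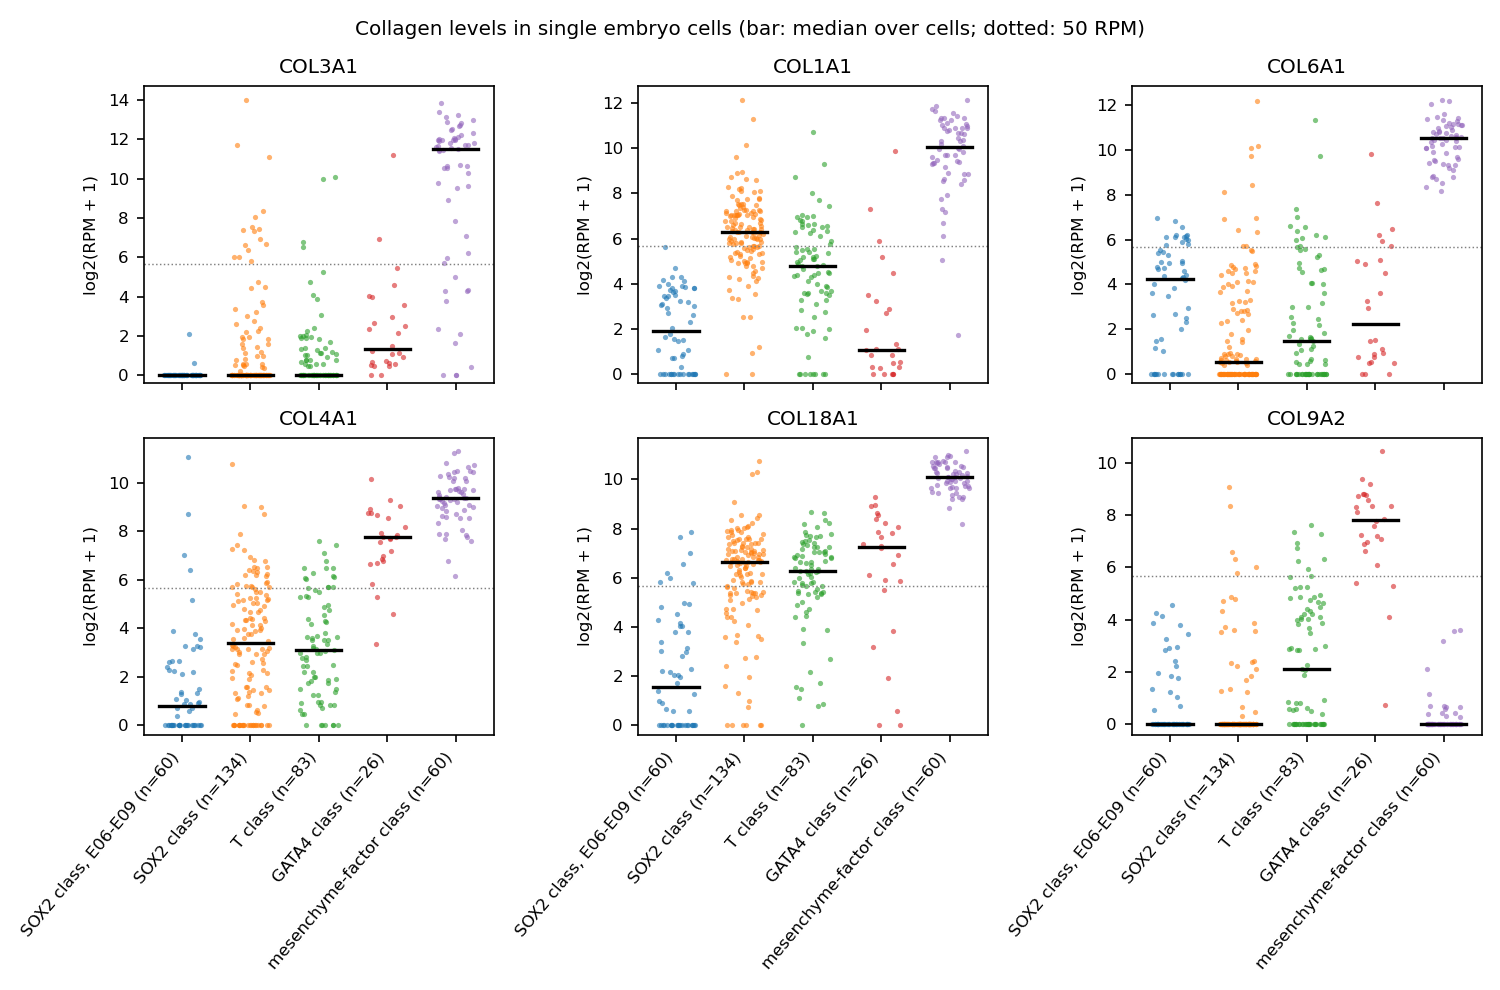
Level of single collagen genes in each embryo cell, as log2(RPM + 1) on the vertical axis, by class on the horizontal axis, with a bar at the median cell and a dotted line at 50 RPM. COL3A1 is high in most cells of the mesenchyme-factor class and at or near 0 in most cells of the others, and COL9A2 is high in most cells of the GATA4 class.

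The network collagens of basement membranes had another pattern. COL4A5 and COL4A6, chains found in a subset of basement membranes, were called in both comparisons. COL4A5 averaged 45.98 and 52.6 RPM in the GATA4 class, 23.2 and 37.5 RPM in the mesenchyme-factor class, and 2.38, 0.07, 6.12 and 1.43 RPM in the SOX2 class. Its changes were 4.16 ± 0.79 (adjusted p = 0.0005) and 3.44 ± 0.79 (adjusted p = 0.004). COL4A6 averaged 54.6 and 63.1 RPM in the GATA4 class and 40.8 and 54.9 RPM in the mesenchyme-factor class, and 0.03, 0, 9.55 and 2.82 RPM in the SOX2 class. The changes of COL4A6 were 4.56 ± 1.18 (adjusted p = 0.0079) and 4.25 ± 1.18 (adjusted p = 0.0178). For both chains every unit of these classes lay above every unit of the SOX2 class.

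COL4A1 averaged 1047 and 470 RPM in the mesenchyme-factor class and 242 and 319 RPM in the GATA4 class, against 29.3, 16.7, 108.9 and 14.2 RPM in the SOX2 class. The groups did not overlap. The rise passed in the mesenchyme-factor class (4.51 ± 1.14, adjusted p = 0.0089) and not in the GATA4 class (3.18, adjusted p = 0.0538). COL4A2, the usual partner of COL4A1 in the same trimer, was named after its values were seen: its highest unit mean was 10.6 RPM, so it was not tested here. A 3′ tag level depends on how the annotated 3′ end is placed as well as on the transcript, and the part of that in the low COL4A2 level was not tested.

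In the basement membrane zone COL18A1 averaged 1193 and 1146 RPM in the mesenchyme-factor class, 112.6 and 306 RPM in the GATA4 class, and 53.8, 52.6, 249 and 134.96 RPM in the SOX2 class. It rose in the mesenchyme-factor class by 3.55 ± 0.80 (adjusted p = 0.0034). The GATA4 and SOX2 classes overlapped.

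The beaded filament chains COL6A1, COL6A2 and COL6A3 assemble into type VI collagen, a microfibril that links cells to the loose matrix. COL6A1 averaged 2043 and 913 RPM in the mesenchyme-factor class and 6.69, 6.27, 198 and 9.33 RPM in the SOX2 class, a rise of 6.21 ± 1.25 (adjusted p = 0.0013). The E16 mean of the SOX2 class rested on few cells, and its median cell held 3.535 RPM of COL6A1. COL6A3 averaged 1188 and 284 RPM against 0.19, 0.04, 61.3 and 2.07 RPM and had the largest change of any collagen in this comparison (7.21 ± 1.55, adjusted p = 0.0023). COL6A2 averaged 199 and 98.5 RPM and rose by 4.40 ± 1.02 (adjusted p = 0.0043). The 3 chains were raised together, and COL6A3 was also higher than in the GATA4 class by 6.22 (adjusted p = 0.0312), whereas COL6A1 was not called there (4.62, adjusted p = 0.0515).

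Of the 7 FACIT members tested 1 rose (COL9A2) and 1 fell (COL9A1) in the GATA4 class, and of the 4 transmembrane members 1 rose (COL23A1). COL9A2 averaged 220 RPM at E13 and 404 at E16 in the GATA4 class, with median cells at 205.04 and 406 RPM, 0.41 and 0.96 RPM in the mesenchyme-factor class, and 9.34 ± 6.86 RPM (SD, n = 4 days) in the SOX2 class. Its units did not overlap with those of either class. It rose in the GATA4 class by 5.14 ± 0.74 against the SOX2 class, fell in the mesenchyme-factor class by 2.35 (adjusted p = 0.0404), and was lower there than in the GATA4 class (-7.49 ± 0.86). COL9A1, a partner chain of COL9A2 named after its values were seen, went the other way in the GATA4 class. It averaged 2.03 RPM there and 19.6 in the SOX2 class (-2.93 ± 0.58, adjusted p = 0.0008). COL23A1, a transmembrane collagen, averaged 97.9 and 57.3 RPM in the GATA4 class and 4.56 RPM in the SOX2 class, a rise of 4.07 ± 1.02 (adjusted p = 0.0059). COL21A1, a FACIT of vessel walls and other tissues, averaged 95.5 and 48.9 RPM in the mesenchyme-factor class and rose by 4.33 ± 0.96 (adjusted p = 0.0031). The remaining calls in the mesenchyme-factor class against the SOX2 class were falls of COL9A1 and of COL25A1 (-2.61, adjusted p = 0.0421). COL25A1 is a transmembrane collagen of neurons named after its values were seen.

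**Figure D2:**
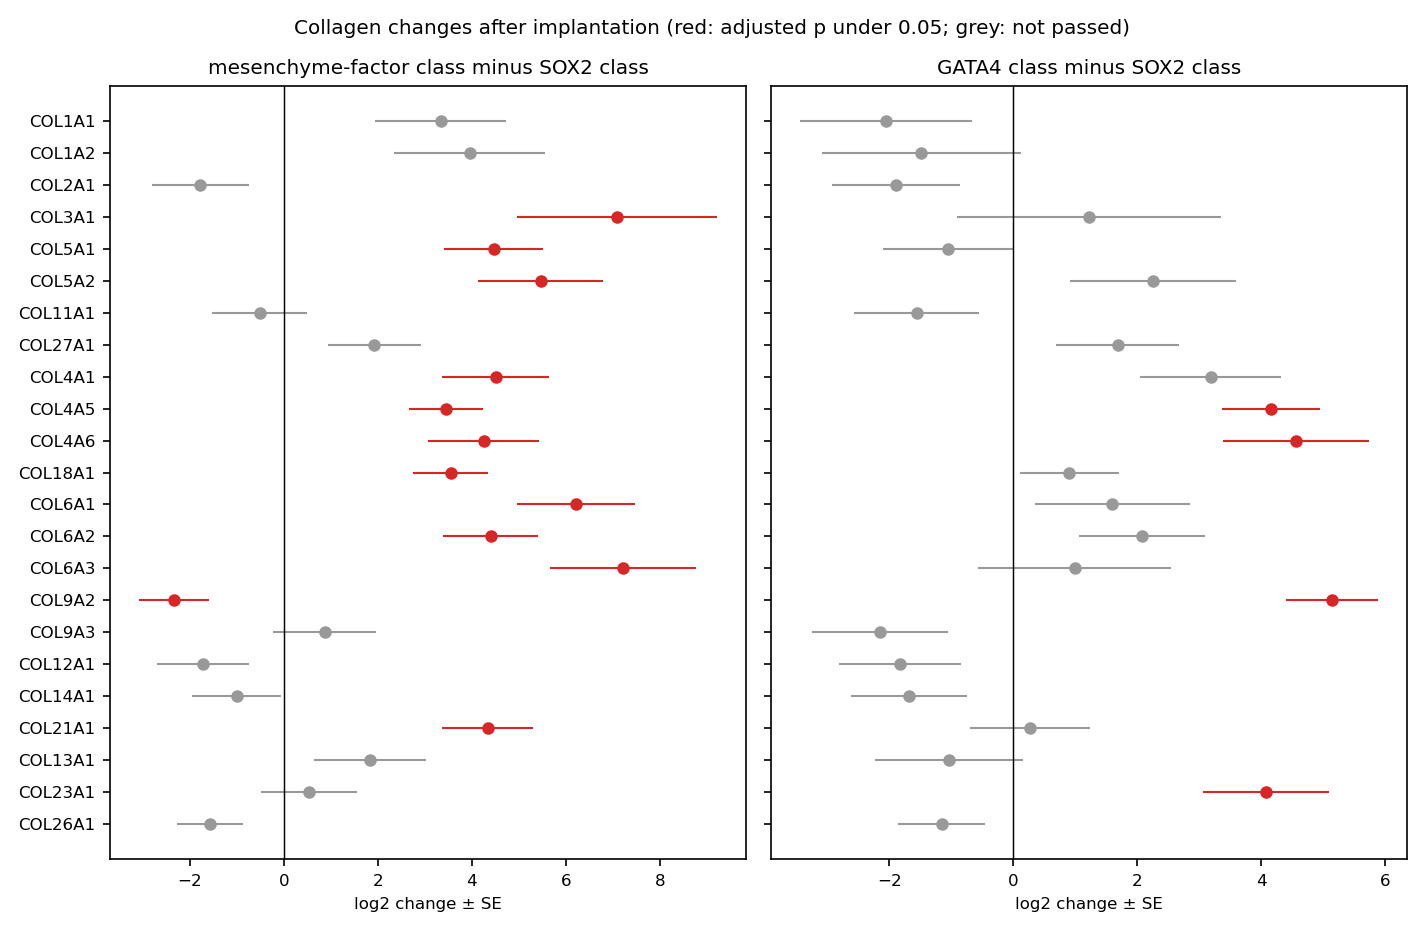
Log2 change (horizontal axis) with its SE (bars) of each of the 23 named collagens, from the SOX2 class to the mesenchyme-factor class and to the GATA4 class after implantation, with calls at an adjusted p under 0.05 in red and the others in grey. Beaded filament and network chains lie to the right for the mesenchyme-factor class, and COL9A2 takes opposite sides in the 2 classes.

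These calls rest on 2 units a class. The count of 14 in the mesenchyme-factor class was 2 without its E13 unit, 9 without its E16 unit, 3 by edgeR on recovered reads, and 0 with embryonic day as a block, a fit that called 0 of all genes. It was 14 without the 3 SOX2-class cells of very high COL3A1. The count of 5 in the GATA4 class was 2 without its E13 unit (COL23A1, COL4A6 and COL9A1 were lost), 2 by edgeR and 1 with the block (COL9A2). Between the 2 classes the count of 5 was 1 without the E13 unit of the GATA4 class, 2 without either mesenchyme-factor unit, and 11 with a pseudocount of 10 RPM.

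Cell titles carry a code whose meaning is not given. Taken within each code that held both groups, the called collagens had the same direction in every code for 5 of 5 (GATA4 against SOX2 class, 2 codes), 13 of 14 (mesenchyme-factor against SOX2 class, 5 codes, COL25A1 being the exception), 5 of 5 (mesenchyme-factor against GATA4 class, 2 codes), 7 of 7 (SOX2 class over implantation, 2 codes) and 11 of 11 (PGCLCs against ESCs, 1 code). For gonadal cells against ESCs, with 1 code, it was 8 of 10, the exceptions being COL6A5 and COL12A1. The genes were called on these same cells, so their direction within codes is partly fixed and is no independent check. Changes as small as 0.098 (COL4A5, mesenchyme-factor against SOX2 class) counted as the same direction. The share for all called genes is not given here.

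The T class showed no collagen call against the SOX2 class: 0 of 31 passed in limma and 0 in edgeR, 1 had an unadjusted p under 0.05, and 0.192% of all genes were called (0.152% higher and 0.0401% lower). COL18A1 averaged 51.3, 85.5, 108.6 and 99.7 RPM at E13, E14, E16 and E17 in the T class. COL26A1, a small secreted collagen, averaged 25.8, 82.3, 32.8 and 39.9 RPM there and 38.8, 40.9, 42.6 and 42.7 RPM in the SOX2 class. COL13A1, a transmembrane collagen of cell junctions, averaged 0.06, 3.12, 41.8 and 19.01 RPM. For COL18A1 and COL26A1 the units of the classes overlapped.

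The next question was how collagen levels changed over implantation in the SOX2 class. Before implantation 5 of 5 epiblast markers and 4 of 8 endoderm markers averaged at least 10 RPM in it. At E06 its summed epiblast markers were 1660 RPM, beside 1381 RPM in the cells of that day that no class took. Of the 31 tested, 6 rose and 1 fell, where 18.2% of all genes were called (9.53% higher and 8.63% lower), a share close to that of the collagens. COL1A1 averaged 2.36, 6.63, 7.24 and 11.99 RPM from E06 to E09 and 104.5, 114.9, 320 and 60.8 RPM from E13 to E17, with no overlap (4.11 ± 1.13, adjusted p = 0.0102). COL1A2, its partner in type I collagen, was already at 28.5, 38.99 and 92.04 RPM at E07, E08 and E09, and the periods overlapped. COL18A1 rose from 8.18 to 29.6 RPM before implantation to 52.6 to 249 RPM after it (2.47 ± 0.65, adjusted p = 0.0069).

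COL26A1 rose by 2.87 ± 0.58 (adjusted p = 0.0005), from units of 1.97, 4.64, 9.93 and 5.06 RPM. Of the cartilage type IX chains COL9A1 and COL9A3 rose, at low levels, and COL9A2 did not pass (1.35, adjusted p = 0.122). COL9A1 averaged 0, 0, 0.21 and 0 RPM before implantation and 16.7, 13.2, 24.5 and 24.02 RPM after it (4.25 ± 0.47), and COL9A3 rose by 3.27 ± 0.90 (adjusted p = 0.0096) to between 6.14 and 19.9 RPM. The 1 member that fell was COL17A1, a transmembrane collagen of hemidesmosomes named after its values were seen. COL17A1 averaged 20.1, 24.3, 13.6 and 18.998 RPM before implantation and 0, 0, 0.445 and 0.922 RPM after it (-3.94 ± 0.58). COL4A1 did not pass (0.11, adjusted p = 0.958). Its unit means before implantation rested on few cells: the median cell held 0.64, 0.89, 1.14 and 0.43 RPM of COL4A1 from E06 to E09, and 6.76, 8.32, 30.7 and 7.81 RPM from E13 to E17, and the difference in medians was not tested. COL5A1 (2.51, adjusted p = 0.0373) was lost without any 1 of 6 units, and edgeR on recovered reads called 12 collagens in place of 7.

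Before implantation the GATA4 gate held 4 cells, too few for a unit, because 47 of the 51 cells with GATA4 at 50 RPM or more also had POU5F1 at 50 or more. An added comparison, chosen after this was seen, dropped the POU5F1 limit for the cells before implantation only. The GATA4 class after implantation kept POU5F1 under 50. In the 51 GATA4 cells before implantation COL4A1 reached 50 RPM in 45, with a median of 693 RPM, and COL3A1 stayed at or under 5.07 RPM. The units with at least 5 cells were E07 (8 cells), with COL4A1 at 387 RPM, and E08 (34 cells), with COL4A1 at 851 RPM, against 11.3, 7.5, 105.5 and 58.01 RPM in the SOX2 class. COL4A1 was higher by 4.34 ± 0.81 (adjusted p = 0.002), COL23A1 by 3.76 (adjusted p = 0.0257) and COL4A2, named after its values were seen, by 2.52 (adjusted p = 0.0277), making 3 of the 32 collagens tested where 1.82% of all genes were called (0.868% higher and 0.956% lower). COL1A2 averaged 478 RPM at E07 and 134.4 at E08 in the same cells, and its difference did not pass (3.46, adjusted p = 0.266).

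Between the GATA4 cells after and before implantation 5 collagens rose, where 10.5% of all genes were called (6.29% higher and 4.25% lower). The periods thus also differed in the limit on POU5F1, and its part in these changes was not tested. COL9A2 averaged 0.83 RPM at E07 and 3.15 at E08 and rose by 6.76. COL4A5 rose by 5.27 (adjusted p = 0.0002), COL4A6 by 5.42 (adjusted p = 0.0073), COL5A2 by 4.67 (adjusted p = 0.0457) and COL27A1, a fibrillar collagen of growing cartilage, by 4.41 (adjusted p = 0.0095). COL4A1 was not called (-1.04, adjusted p = 0.568). The change over implantation differed from that of the SOX2 class for COL9A2 (5.41 ± 1.07, adjusted p = 0.0069) and COL4A5 (4.82 ± 1.11, adjusted p = 0.0267), where 0.757% of all genes were called (0.422% higher and 0.335% lower). Fitted on the classes compared alone, the counts of 3 and 5 were both 0, and that of 2 was 4. The first of these 3 counts was also 0 without the E08 unit and 1 without the E07 unit, the second was 3 without E07 and 2 without E08, and the third was 0 without E07 and 1 without E08 or without the E13 unit.

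The ESC lines were compared with the SOX2 class after implantation. In limma 0 of 31 collagens passed, and in edgeR 0; 3 had an unadjusted p under 0.05, and 1.03% of all genes were called (0.385% higher and 0.641% lower). COL1A1 was the highest collagen of the lines, at 130 RPM in 656BTAG, 438 in CMK6 and 267 in CMK9, and its difference from the SOX2 class was 1.00 (adjusted p = 0.9). COL3A1, its usual companion in connective tissue, averaged 3.76, 0.10 and 0.00 RPM. COL12A1, a FACIT of tendon and skin, averaged 24.7, 11.3 and 51.7 RPM and differed by 2.81 ± 0.87 (adjusted p = 0.127). CMK6 and CMK9 grew on mouse feeders, whose own collagen transcripts could share reads with monkey genes, and this was not tested.

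From ESCs to PGCLCs COL1A1 fell and the cartilage chains COL2A1 and COL11A1 rose. In all 7 collagens rose and 4 fell, where 18% of all genes were called (6.44% higher and 11.6% lower). COL2A1, the main fibrillar collagen of cartilage, averaged 27.3, 2.29 and 0.77 RPM in the 3 ESC lines and 738 RPM in GK15 and 591 in aRB27 (6.91 ± 1.09). COL11A1, which nucleates the same cartilage fibrils, averaged 19.6, 12.6 and 6.08 RPM in ESCs and 298 and 120.8 RPM in PGCLCs (3.92 ± 1.07, adjusted p = 0.0098). For both genes the PGCLC units lay far above every ESC line. Single PGCLCs ran from 447 to 1607 RPM of COL2A1 in GK15 and from 139.7 to 1381 RPM in aRB27, so each of the 12 cells was above 50 RPM.

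COL1A1 averaged 2.69 RPM in GK15 and 9.01 in aRB27, below all ESC lines (-5.36 ± 1.46, adjusted p = 0.0099). COL1A2 averaged 40.1 and 6.26 RPM, the first within and the second below the range of the ESC lines (16.4 to 43.8 RPM), and was not called. COL12A1 fell to 0.09 and 0.26 RPM (-4.44, adjusted p = 0.0028), and COL18A1 to 18.99 and 2.08 RPM (-3.14, adjusted p = 0.0084). COL9A1, outside the naming rule, fell by 3.503 on the log2 scale.

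The network chains COL4A5 (31.5 and 22.3 RPM, 2.80, adjusted p = 0.0175) and COL4A6 (81.2 and 155.6 RPM, 3.78, adjusted p = 0.0319) rose in the PGCLCs, as did the transmembrane COL13A1 (13.3 and 53.7 RPM, 4.78, adjusted p = 0.0075) and COL23A1 (56.3 and 45.8 RPM, 3.71, adjusted p = 0.0142). COL6A3 averaged 79.04 RPM in GK15 and 354 in aRB27, and its rise of 4.55 ± 1.64 lay at the threshold (adjusted p = 0.0499). The count of 11 was 5 without the GK15 unit, 6 without the aRB27 unit and 4 by edgeR. PGCLCs held 4 of 6 germ cell markers at 10 RPM or more, with the late marker DDX4 at 0.

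**Figure D3:**
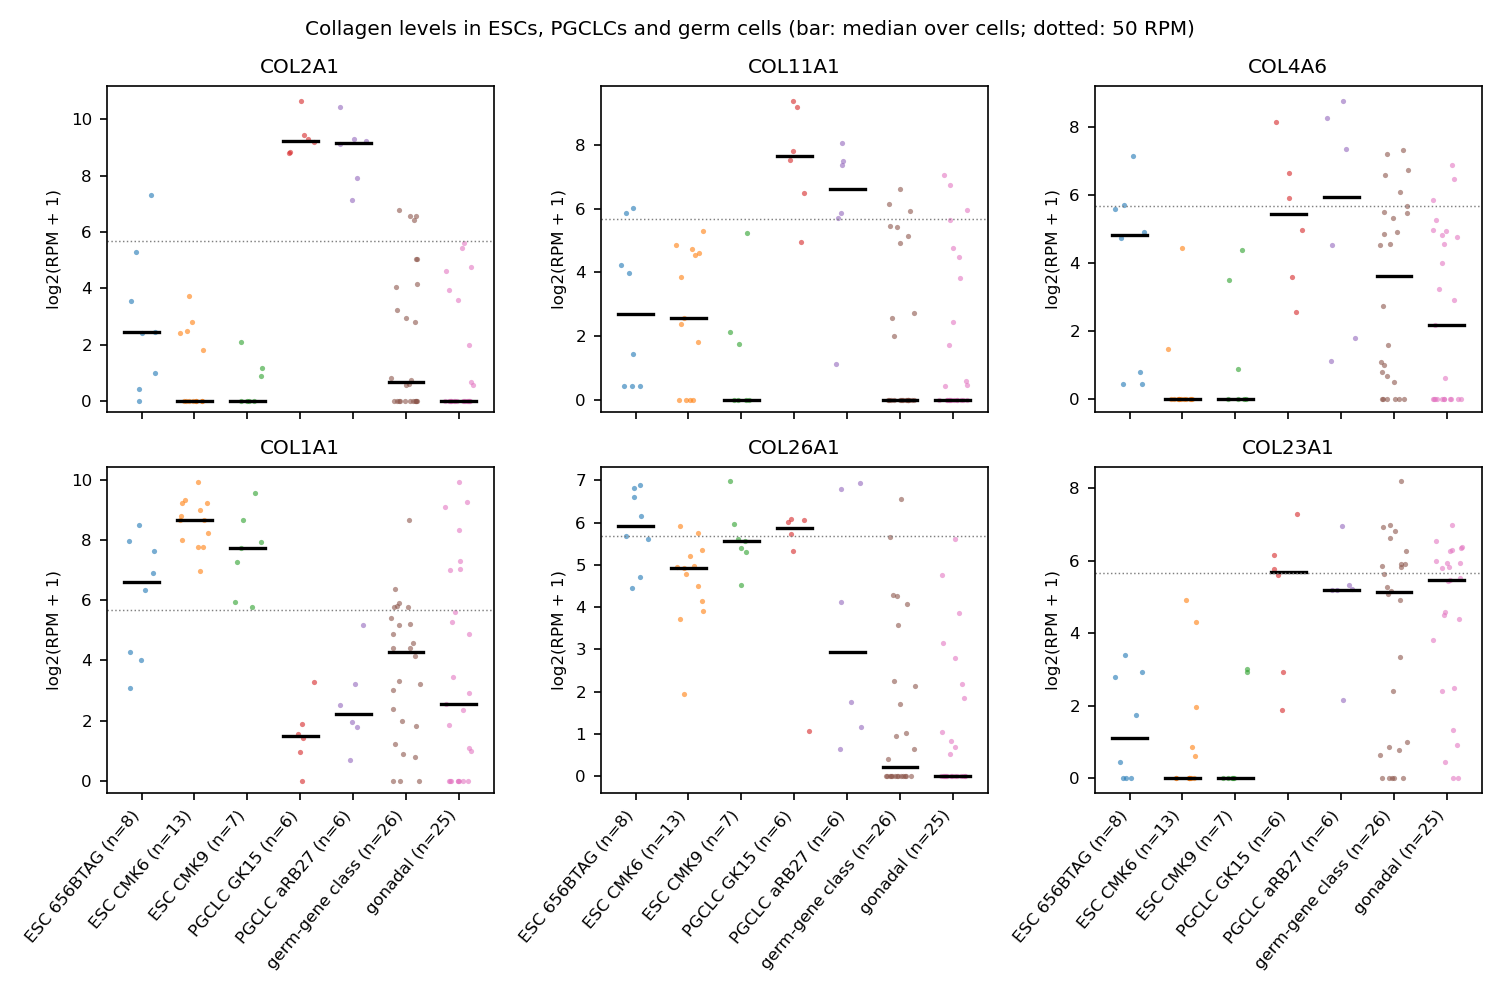
Level of single collagen genes in each ESC, PGCLC, gonadal germ cell and embryo cell of the germ-gene class, as log2(RPM + 1) on the vertical axis, with a bar at the median cell and a dotted line at 50 RPM. COL2A1 lies above the line in all 12 PGCLCs and below it in the gonadal cells, COL1A1 lies mostly above it in ESCs and below it in all 12 PGCLCs, and COL23A1 spreads across the line in PGCLCs and gonadal cells.

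In gonadal germ cells COL2A1 and COL11A1 were low again. COL2A1 averaged 2.96, 21.3, 0 and 3.75 RPM at E36, E43, E50 and E51, and was lower than in PGCLCs (-7.19 ± 1.03 on the log2 scale). COL11A1 averaged 43.6, 3.61, 0.46 and 6.31 RPM, lower than in PGCLCs (-4.8 ± 1.02, adjusted p = 0.001). COL26A1 was also lower (-3.44 ± 0.70, adjusted p = 0.0007), and COL9A3 was higher by 2.99 ± 1.10 (adjusted p = 0.0491). These 4 were the calls between the 2 groups, where 21.3% of all genes were called (12.8% higher and 8.52% lower), and edgeR called 2.

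Against ESCs 6 collagens were higher and 4 lower in the gonadal cells, where 27% of all genes were called (12.8% higher and 14.1% lower). COL14A1, a FACIT of mature connective tissue, averaged 43.2, 47.7, 2.78 and 13.7 RPM and was higher by 3.49 ± 0.83 (adjusted p = 0.0019). COL23A1 averaged 25.7, 55.7, 74.7 and 22.6 RPM (3.36, adjusted p = 0.0051), and COL4A5 39.5, 18.7, 11.5 and 34.5 RPM (2.63, adjusted p = 0.0049). COL15A1 (2.50), COL6A6 (2.25) and COL6A5 (1.98) were also higher, at low levels and outside the naming rule. COL26A1 (-3.52, adjusted p = 0.0001), COL9A1 (-3.61), COL12A1 (-2.41, adjusted p = 0.0364) and COL18A1 (-2.13, adjusted p = 0.0223) were lower. COL4A1 averaged 186.9, 69.3, 140.9 and 93.3 RPM and was not called (2.48, adjusted p = 0.0641). Over all 25 cells COL1A1 averaged 120.3 RPM and COL4A1 117.2 RPM. The count of 10 was 5 without CMK9.

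Some gonadal cells also held genes of gonadal somatic cells. Of the 25, 8 had at least 3 of the somatic markers at 50 RPM or more, and over the units 4 of 5 somatic markers averaged at least 10 RPM, their sum running from 108.9 to 591 RPM. In those 8 cells COL1A1 averaged 362 RPM, against 6.82 in the other 17. COL3A1 averaged 237.9 against 40.1 RPM and COL9A3 161.9 against 5.34. COL4A1 averaged 105.3 against 122.9 RPM, and COL23A1 51.9 against 37.6. COL1A1, COL3A1 and COL9A3 were thus higher in the cells with somatic markers, and COL4A1 was about level. Without the 8 cells the count of calls against ESCs was 8: COL14A1 (1.33), COL15A1 and COL6A6 were not among them. Against PGCLCs COL9A3 (0.65) was no longer called without them.

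Embryo cells with PRDM1, TFAP2C and SOX17 all at 50 RPM or more, the germ-gene class, numbered 26. COL4A1 averaged 133.5, 35.6 and 58.996 RPM at E13, E16 and E17 there, COL23A1 26.2, 45.2 and 104.7 RPM, and COL14A1 42.4, 37.8 and 19.6 RPM. COL2A1 averaged 30.2, 7.22 and 19.1 RPM in this class, and all 3 of its units were below the PGCLC units. This class was described and not tested.

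Summed over all 43 genes, collagen made 10532 RPM or 1.05% of the reads in the mesenchyme-factor class (14753 at E13 and 6312 at E16). Of this 5984 RPM or 56.8% was fibrillar and 2364 RPM or 22.4% beaded filament. In the GATA4 class the sum was 1511 RPM, with network members at 344 RPM at E13 and 438 at E16 and FACIT members at 226.7 and 433.6 RPM. Its fibrillar sum was 54.7 RPM at E13 (median cell 8.01) and 671 at E16 (median cell 118.7), so the E16 mean was well above its median cell. The SOX2 class summed to 803 RPM after and 209 RPM before implantation, and the T class to 486. The 55 cells after implantation that no class took summed to 3425 RPM, with units of 3619, 5991 and 667 RPM at E13, E16 and E17 and median cells of 523, 1373 and 589. At E16 their fibrillar sum was 3923 RPM (median cell 411), beside 3104 (median cell 1166) in the mesenchyme-factor class. ESCs summed to 652, PGCLCs to 1646 and gonadal cells to 807 RPM. Fibrillar members made 56.7% of the collagen in ESCs, mostly COL1A1, and 996 of the 1646 RPM in PGCLCs, mostly COL2A1 and COL11A1. The E16 unit of the SOX2 class summed to 2042 RPM with a median cell of 527, where the class's other days lay between 363 and 420.

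**Figure D4:**
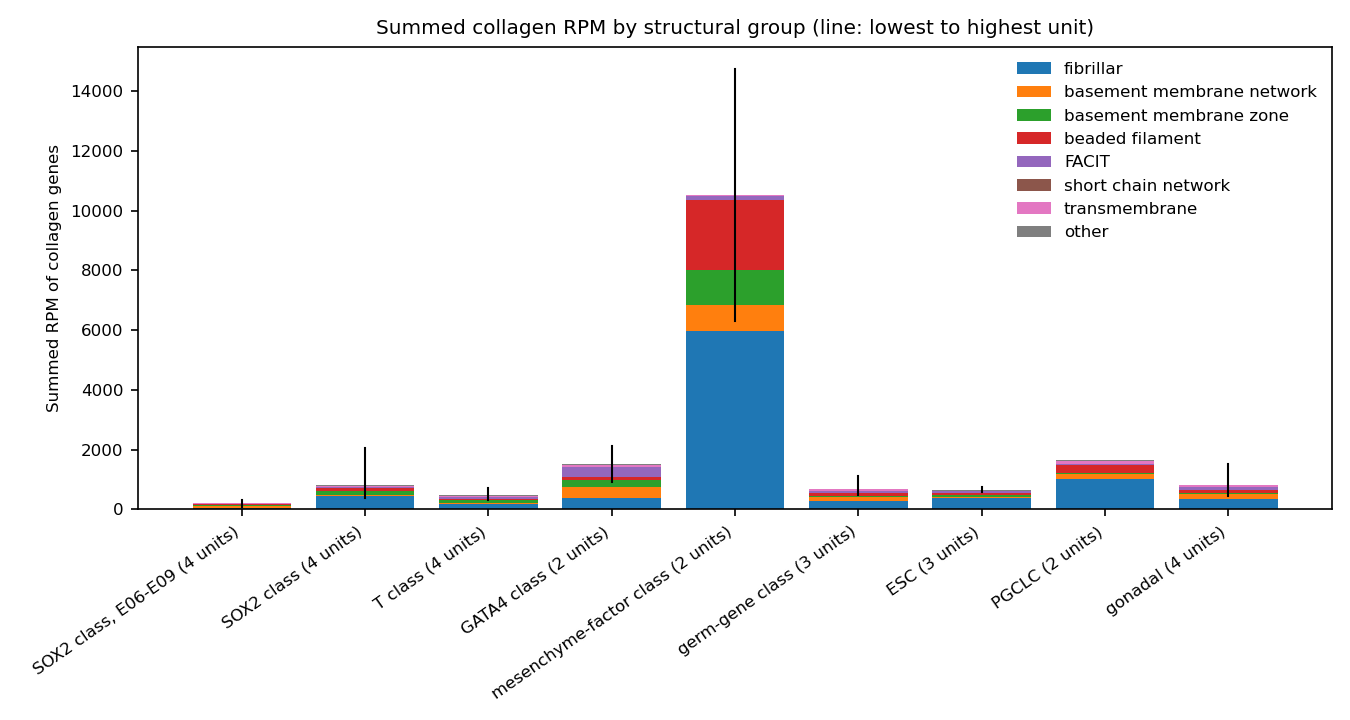
Summed collagen level in RPM by structural group for each class, where bars are means over units and the line runs from the lowest to the highest unit. The mesenchyme-factor class is the highest, mostly fibrillar and beaded filament, and its 2 units lie at 14753 and 6312 RPM.

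Genes that process or hold collagen, from lists set out with the comparisons, were counted beside it. Of 14 genes for hydroxylation and folding of collagen chains, 7 rose and none fell in the mesenchyme-factor class against the SOX2 class, among them PLOD2 (3.24), a lysyl hydroxylase, and SERPINH1 (2.12), the collagen chaperone. Of 8 genes for cross-linking and fibril assembly 6 rose: POSTN (7.55), DCN (4.86), LOX (3.41), SPARC (3.40), LOXL1 (2.48) and LOXL2 (1.97). Of 7 partners of collagen in basement membranes 4 rose, namely NID2 (5.37), LAMA1 (4.71), LAMB1 (3.38) and LAMC1 (2.91). Of 5 procollagen cleavage genes 2 rose, and of 5 collagen receptors 1 rose and 1 fell. Of all genes 9.23% were called in this comparison. In the GATA4 class, where 15.5% of all genes were called, 1 of the 5 cleavage genes and 2 of the 5 receptors rose. Of the first 3 lists 5 of 14, 1 of 8 and 3 of 7 rose, the last being LAMA1 (4.49), LAMB1 (4.16) and LAMC1 (2.83). Over implantation in the SOX2 class 4 of these 7 fell, LAMA1 (-4.03), LAMB1 (-3.12), LAMC1 (-2.90) and LAMA5 (-2.13), and SERPINH1 rose (1.80), as 1 of 14. Of all genes 18.2% were called there (9.53% higher and 8.63% lower). In the other lists 3 of 8 cross-linking and assembly genes, 2 of 5 receptors and 1 of 5 cleavage genes rose and none fell. From ESCs to PGCLCs P4HA1 (2.02) and P4HA2 (2.07), both prolyl hydroxylases, and CRTAP (2.51) rose, and SPARC (-3.74), LAMB1 (-4.36) and LAMA1 (-3.28) fell. Cleavage genes rose in 2 and fell in 2 of 5 cases there, with 18% of all genes called. In gonadal cells against ESCs, with 27% of all genes called, 2 of the 14 hydroxylation and folding genes rose and 4 fell, SERPINH1 (-2.39) and PPIB (-2.14) among the latter.

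Profiles of collagen genes across the 35 units are given here as Pearson's r of log2 levels, a description over units that share classes and days. A link of profile to gene position was not tested. Some neighbour pairs, such as COL4A1 and COL4A2, held a gene that was not tested and have no r. By the RefSeq gene order COL3A1 and COL5A2 are neighbours (r = 0.81), as are COL6A1 and COL6A2 (0.73) and COL6A5 and COL6A6 (0.35). The X-linked network pair COL4A5 and COL4A6 gave 0.78, and COL5A1 and COL6A3, which are not neighbours, 0.83. The lists that follow run over the genes tested, with other collagens left out. The genes most like COL3A1 were CCDC80 (0.89), SULT1C4 (0.87), HAND2 (0.86, used to set the mesenchyme-factor class), POSTN (0.85) and DCN (0.84). Those most like COL4A1 were ARHGAP10 (0.84), KDELR2 (0.82), RHOBTB3 (0.79), SEPT7 (0.78) and LIFR (0.75).

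Of the 43 members 18 reached a class mean of 50 RPM: 11 of these were highest in the mesenchyme-factor class, 3 in PGCLCs, 2 in the GATA4 class, 1 in ESCs and 1 in gonadal cells. The 12 not tested had unit means of at most 21.1 RPM (COL11A2, a cartilage fibrillar chain, named after its values were seen). The 20 members that the naming rule did not reach had class means of at most 19.6 RPM. None was at 0 in every cell, and COL28A1, also named after its values were seen, was above 0 in 1 cell, at 0.45 RPM.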

How the data were processed

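The authors deposited 1 table of RPM values for 605 single cells, and this table was used for every value. The tools named are TopHat 1.4.1, Cufflinks 2.2.0 and cutadapt 1.3, without their roles, per the submitters' processing notes, and the genome build is not given in the sources used here. SC3-seq counts reads near transcript 3′ ends, so RPM values were not divided by length.

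The members, classes and lists were chosen with earlier results of these data known. Classes were assigned in the order germ-gene, mesenchyme-factor, T, SOX2, GATA4, and the germ-gene class was set from E13 on. Unit means were taken as log2(mean RPM + 1), genes with at least 10 RPM in 2 units or more were kept (12472 of 26018), and limma 3.58.1 in R 4.3.3 was fitted once over all 12 classes with an intensity trend. P-values were adjusted by Benjamini and Hochberg over all genes tested. A gene is named if a class mean reached 50 RPM, or if it was called with at least 20 RPM in the higher class. Whole reads were recovered for 551 of 605 cells (99.8% of values within 0.1 read of a whole number) and tested with edgeR 4.0.16, which called 2, 3 and 1 collagens after implantation (GATA4 against SOX2 class, mesenchyme-factor against SOX2 class, mesenchyme-factor against GATA4 class), 0 for T against SOX2 class, 12 for the SOX2 class over implantation, 0 and 4 for ESCs against SOX2 class and PGCLCs against ESCs, and 8 and 2 for gonadal cells against ESCs and PGCLCs. No doublet caller was run. The tests were checked on simulated data. One cell labelled CMK6 in its title and CMK9 in its description was kept as CMK6.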

Additional observations from a re-analysis of the deposited data

Results flagged for a closer look

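Of 57 groups of 4 unit means examined, 3 had 1 unit far from the other 3. Chance alone gives about 1 in 20, a share close to the one found. COL6A1 averaged 198.498 RPM at E16 in the SOX2 class, and 6.27 to 9.33 RPM on its other days. That E16 mean rested on few cells: the median cell held 3.535 RPM, and 9 of 44 cells reached 50 RPM. The 3 cells with COL3A1 at 1000 RPM or more averaged 2283 RPM of COL6A1. COL5A1 averaged 2.86 RPM at E13 in the T class, beside 27.4 to 33.7 RPM on the other days. COL4A6 averaged 1.41 RPM in gonadal cells of E36, beside 20.3 to 31.1 RPM in the later gonadal units.

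The change over implantation in GATA4 cells differed from that in the SOX2 class for COL9A2 (difference of log2 changes 5.41) and for COL4A5 (4.82), both by an interaction term in limma. These GATA4 cells had no limit on POU5F1 before implantation and POU5F1 under 50 after it.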

How the results depend on the processing

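Of the 55 calls of named collagens, tried under 708 alternatives in all, 532 kept the call, 176 lost it and 0 reversed, and 9 calls held under every alternative run for them: COL9A2 (GATA4 against SOX2 class), COL1A1, COL18A1 and COL26A1 (SOX2 class over implantation), COL2A1 (PGCLCs against ESCs and against gonadal cells), and COL4A5, COL23A1 and COL26A1 (gonadal cells against ESCs). Embryonic day as a block kept 1 of 21 calls and edgeR 20 of 46. The cause of the differences below was not tested. GATA4 against SOX2 class: 8 collagens called with no filter, 9 with means of log2 values, 2 by edgeR, 1 with the block. Mesenchyme-factor against SOX2 class: 3 by edgeR, 0 with the block. Mesenchyme-factor against GATA4 class: 11 with a pseudocount of 10, 12 with means of log2 values, 1 by edgeR, 0 with the block. The block called 0 of all genes in these last 2 comparisons. T against SOX2 class: 1 with means of log2 values. SOX2 class after against before implantation: 12 by edgeR. ESCs against SOX2 class: 1 each with a pseudocount of 10, means of log2 values and quantile normalization. PGCLCs against ESCs: 4 by edgeR. Gonadal cells against PGCLCs: 9 with means of log2 values, 2 by edgeR. In the added comparisons, fits of the classes compared alone gave 0, 0 and 4 calls for GATA4 against SOX2 before implantation, GATA4 after against before, and their interaction, and a pseudocount of 10 gave 4 for the interaction.

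Leaving out 1 unit or class at a time gave, in the order of the comparisons above, 2 to 6, 2 to 12, 1 to 6, 0 to 0, 6 to 8, 0 to 0, 5 to 11 (PGCLCs against ESCs) and 3 to 6 calls, 5 to 10 for gonadal cells against ESCs, and 0 to 3, 2 to 6 and 0 to 3 for the added ones. The planned comparisons of the GATA4 gate over implantation with POU5F1 under 50 were not run, since no unit before implantation had 5 cells. At the median depth 50 RPM is 99 reads, and the effect of depth on the members of low level was not tested.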
